A study of Mus musculus with 6 samples.

Results

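The CCN family of matricellular proteins was examined in spheroids of 4T1 cells, an established mouse mammary carcinoma line used as a model of triple-negative breast cancer. Its 6 genes (Ccn1 to Ccn6) were found by matching the Ensembl identifiers of the count table to GENCODE M21 names, with the older names Cyr61, Ctgf, Nov, Wisp1, Wisp2 and Wisp3 taken as the same genes. All 6 were present among the 48820 listed identifiers. RNA-seq libraries labelled LATS1/2 double-knockout (dKO, 3 libraries) were compared with wild-type libraries (WT, 3 libraries). Both groups were 4T1 spheroids kept in RPMI with 10% fetal bovine serum and antibiotics. The labels do not say whether the dKO line was 1 clone, or how the alleles were edited. They call the replicates biological without saying whether these came from separate cultures. The p-values therefore reflect only variation among these 6 libraries, which could be technical in origin.

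CCN proteins are secreted into the matrix, where they bind integrins, heparan sulfate proteoglycans and growth factors rather than acting as structural components. Each is built from modules related to insulin-like growth factor binding proteins, von Willebrand factor type C domains and thrombospondin type 1 repeats, and all but CCN5 end in a cysteine knot module. LATS1 and LATS2 are the Hippo pathway kinases that phosphorylate and restrain the coactivators YAP and TAZ, which act through TEAD transcription factors. CCN1 and CCN2 are textbook YAP/TAZ target genes, whereas CCN4 takes its older name from its induction by Wnt signalling.

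Library totals ran from 38194478 to 42486146 counts in dKO and from 40150225 to 49630116 counts in WT. Lats1 stood at 50.9 ± 2.55 CPM (counts scaled to library size with TMM factors) in the libraries labelled dKO and at 153 ± 6.36 CPM in WT (SD, n = 3 each). Lats2 was not lower but higher there, at 77.9 ± 12.5 CPM in the libraries labelled dKO against 27.2 ± 4.01 CPM in WT. Exons of Gm49361 overlap those of Lats2 on the same strand, and counts per gene do not show small deletions. Every direction given here is therefore between libraries as labelled. Library 3 of the dKO group and library 2 of the WT group lay apart from the rest of their groups on the second principal component, which held 4.82% of the variance, and the labels give no batch. The 6 epithelial markers were expressed in all libraries, with summed levels of 4205 to 4787 CPM in dKO and 5336 to 5458 CPM in WT. These sums hide unlike directions. Epcam, Krt8 and Krt18 had lower means in dKO, at 288, 1116 and 951 CPM against 795, 1636 and 1501 CPM in WT. Krt19 and Cdh1 had higher means in dKO, at 320 and 861 CPM against 103 and 412 CPM in WT. Cldn4 overlapped between groups, at 867 CPM in dKO and 958 CPM in WT.

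Of the 6 CCN genes, 4 passed the filter on low counts and were tested (Ccn1, Ccn2, Ccn4 and Ccn5), and all 4 were higher in the libraries labelled dKO by edgeR's quasi-likelihood test at an adjusted p under 0.05. Over all 15807 tested genes, 57.3% were called in either direction, 28.6% higher and 28.7% lower, so being called was common in this comparison. The groups did not overlap for any of the 4 genes, as for 65.6% of all tested genes. Ccn3 and Ccn6 had too few counts to be tested. Fewer cells that express a gene and less RNA per cell cannot be told apart in these bulk libraries.

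**Figure D1:**
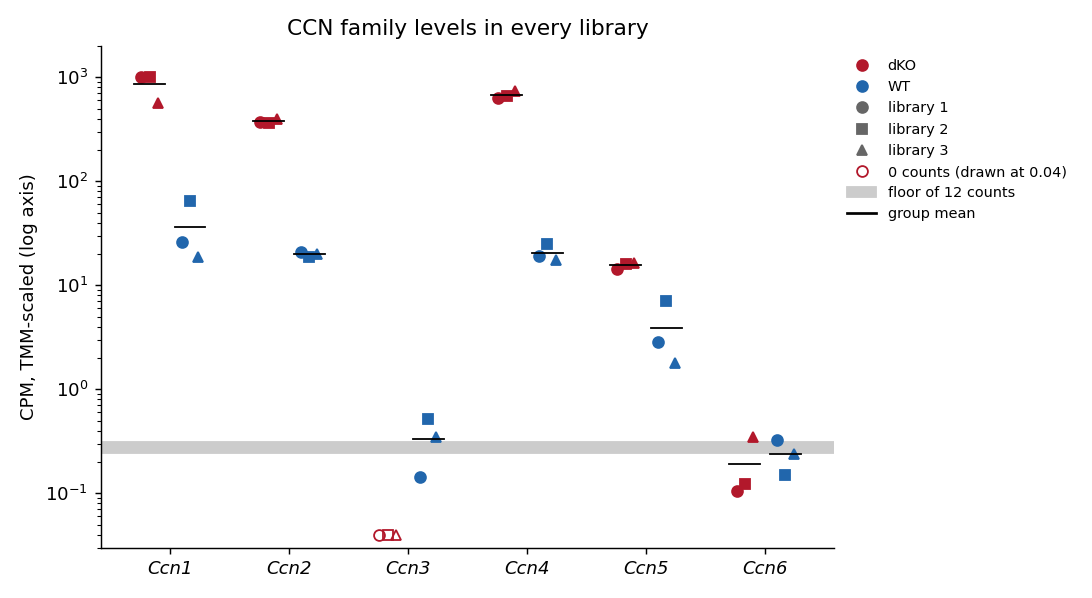
Level of each CCN gene in every library, in TMM-scaled CPM on a log axis, with dKO left of WT for each gene, symbols for libraries 1 to 3, black lines for group means, a grey band for the floor of 12 counts and open symbols, drawn below it, for 0 counts. Ccn1, Ccn2 and Ccn4 stood at 365 CPM or more in every dKO library and at 64.2 CPM or less in every WT library, while Ccn3 and Ccn6 lay at or near the floor.

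Ccn1 (ENSMUSG00000028195, GRCm38 chromosome 3, 145646976 to 145649981, minus strand, 5 exons) encodes a protein of 379 residues that binds integrins and is induced within minutes by serum. Only Ccn1 and Ccn6 matched the table of RefSeq promoters, and the 250 bases before their transcription starts are printed here because Ccn1 was among the genes that rose and Ccn6 was near the floor in both groups. Both windows are on GRCm38.p6 and the minus strand, chr3:145649986-145650235 for Ccn1 and chr10:39163795-39164044 for Ccn6, and are written 5′ to 3′. Capitals mark matches to a TEAD motif (GGAATG), an AP-1 motif (TGANTCA), a CRE half-site (TGACG) and the CArG box of SRF, each on both strands, and to TATAAA on the printed strand.
Ccn1: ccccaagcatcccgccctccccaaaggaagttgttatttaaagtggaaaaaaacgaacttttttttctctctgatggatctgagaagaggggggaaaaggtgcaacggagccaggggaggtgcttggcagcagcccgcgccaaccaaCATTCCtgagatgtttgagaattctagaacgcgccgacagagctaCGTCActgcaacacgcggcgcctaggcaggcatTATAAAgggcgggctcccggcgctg
Ccn6: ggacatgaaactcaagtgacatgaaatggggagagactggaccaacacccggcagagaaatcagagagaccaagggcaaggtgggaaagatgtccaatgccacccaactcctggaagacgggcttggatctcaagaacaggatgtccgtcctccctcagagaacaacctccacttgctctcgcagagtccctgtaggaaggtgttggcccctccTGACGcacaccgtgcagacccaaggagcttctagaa
In the Ccn1 window the TEAD letters lay on the opposite strand 103 bases before the start, as CATTCC, the CRE half-site 58 bases before it and TATAAA 25 bases before it, with no overlap between them. The Ccn6 window held only a CRE half-site, 36 bases before the start. Of all 32851 windows of this length, 12.64% held the TEAD motif, 17.77% the CRE half-site, 7.59% TATAAA, 6.75% the AP-1 motif and 1.47% the CArG box. A match of letters is not a binding site.

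Ccn1 stood at 1000.3, 1000.8 and 563 CPM in dKO libraries 1, 2 and 3, against 25.99, 64.2 and 18.6 CPM in WT libraries 1, 2 and 3. The groups were far apart, but library 3 was low within dKO and library 2 was high within WT. Ccn1 rose by 4.56 ± 0.63 on the log2 scale (SE, edgeR adjusted p = 0.00234), and the value was 5.26 without WT library 2 and 5.49 without WT library 2 and dKO library 3. In dKO only 104 of the 15807 tested genes had a higher mean CPM than Ccn1, against 5995 genes in WT.

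Ccn2 (ENSMUSG00000019997, chromosome 10, 24595442 to 24598683, plus strand, 5 exons, 348 residues) encodes connective tissue growth factor, a profibrotic matricellular protein. Its levels were 373, 365 and 398 CPM in dKO libraries 1 to 3, against 20.7, 18.7 and 19.96 CPM in WT libraries 1 to 3. The libraries of a group differed little, including those in which Ccn1 was low or high. Ccn2 rose by 4.26 ± 0.08 (edgeR adjusted p = 8.96e-09), and only 4 tested genes had a smaller adjusted p. Exons of Gm15270 overlap those of Ccn2 on the other strand and held 9, 17 and 13 counts in dKO libraries, against 0, 0 and 2 counts in WT libraries, where Ccn2 had 14241 to 17112 and 753 to 1021 counts.

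Ccn4 (ENSMUSG00000005124, chromosome 15, 66891320 to 66923201, plus strand, 5 exons, 367 residues) encodes the protein first named WISP1. It stood at 627, 654 and 739 CPM in dKO libraries 1 to 3, against 19.0, 24.7 and 17.3 CPM in WT libraries 1 to 3. Library 3 was the highest of the dKO group for Ccn4, whereas it was the lowest for Ccn1. Ccn4 rose by 5.05 ± 0.15 (edgeR adjusted p = 4.58e-08), a fitted fold of 33.2. Among the 9561 tested genes with a WT mean of at least 10 CPM, 1 gene had a larger fitted rise than Ccn4, 6 had a larger one than Ccn1 and 7 than Ccn2. Over all 15807 tested genes, which include genes near 0 in WT, these numbers were 337 for Ccn4, 376 for Ccn1, 405 for Ccn2 and 967 for Ccn5.

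**Figure D2:**
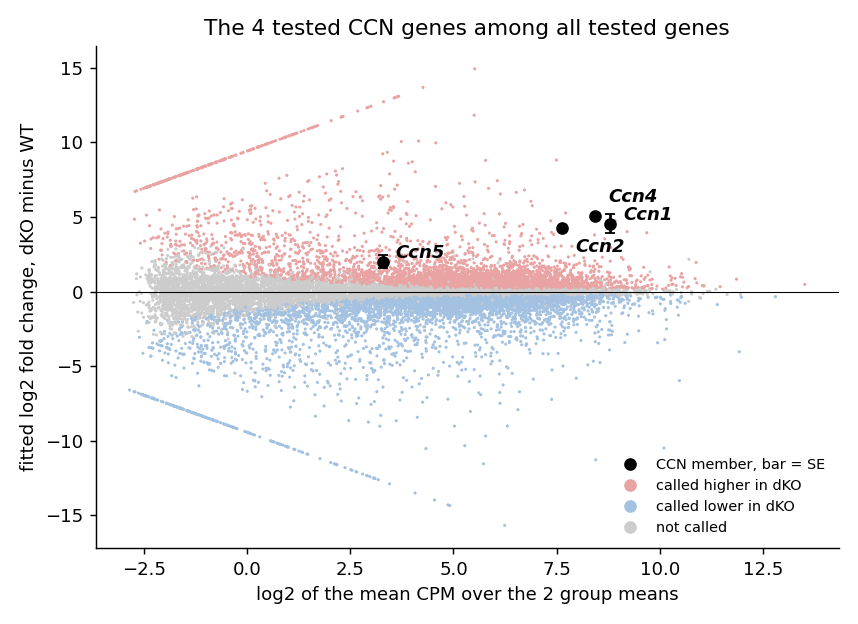
Fitted log2 fold change, dKO minus WT, against the log2 mean level of all 15807 tested genes, coloured by call, with the 4 tested CCN genes in black and bars for their SE. The straight streaks at the edges are genes at 0 counts in every library of 1 group, whose fitted folds depend on the prior count. Ccn1, Ccn2 and Ccn4 lie at 4.26 to 5.05 among well-expressed genes, and Ccn5 at 2.00.

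Ccn5 (ENSMUSG00000027656, chromosome 2, 163820861 to 163833146, plus strand, 5 exons) encodes the short member of the family that lacks the cysteine knot module, with 251 residues against 348 to 379 for the others. It was far less abundant, at 14.4, 15.9 and 16.4 CPM in dKO libraries 1 to 3, against 2.88, 7.05 and 1.79 CPM in WT libraries 1 to 3. As for Ccn1, library 2 was the highest of the WT group, but unlike Ccn1 the dKO libraries were close together. Ccn5 rose by 2.00 ± 0.44 (edgeR adjusted p = 0.00525), and the value was 2.73 without WT library 2 and 2.70 without WT library 2 and dKO library 3. Without both libraries Ccn2 and Ccn4 stood at 4.18 and 5.14 on the same scale.

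Ccn3 (ENSMUSG00000037362, chromosome 15, 54745702 to 54754039, plus strand, 354 residues), known from other systems to oppose CCN2, had 0 counts in every dKO library, against 7, 21 and 16 counts in WT libraries 1 to 3. A single read pair may add up to 4 counts in these files, so a count of 0 allows up to 12 counts per library, or 0.279 to 0.314 CPM in dKO. Of the WT levels, 0.142 CPM in library 1 was under that floor. The levels of 0.521 and 0.345 CPM in libraries 2 and 3 were above but near it, and no fold is given. Without a filter on low counts Ccn3 passed the test as lower (edgeR adjusted p = 0.0108), as it did with DESeq2 (adjusted p = 0.00194), but both set WT counts near the floor against counts of 0 and are not read as a change. Ccn6 (ENSMUSG00000062074, chromosome 10, 39150970 to 39163794, minus strand, 354 residues), whose human counterpart is mutated in a skeletal dysplasia, had 4, 5 and 15 counts in dKO libraries, against 16, 6 and 11 counts in WT libraries. The groups overlapped, and part of its counts may belong to Tube1, whose exons overlap those of Ccn6 on the other strand and which stood at 3.71 ± 0.924 CPM in dKO and 4.14 ± 0.154 CPM in WT.

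Levels of different genes were compared per length, as RPKM over the union of a gene's exons. In dKO Ccn1 led with 423 ± 125 RPKM, followed by Ccn2 with 132 ± 6.12, Ccn4 with 121 ± 10.5, Ccn5 with 8.10 ± 0.552 and Ccn6 with 0.135 ± 0.0960 RPKM, with Ccn3 at 0 (SD, n = 3). In WT the same genes led, with Ccn1 at 17.95 ± 12.1 RPKM, Ccn2 at 6.91 ± 0.357, Ccn4 at 3.65 ± 0.690, Ccn5 at 2.03 ± 1.44, Ccn6 at 0.167 ± 0.0619 and Ccn3 at 0.117 ± 0.0661 RPKM. Neighbours in this order overlapped between Ccn2 and Ccn4 in dKO, between Ccn4 and Ccn5 in WT and between Ccn6 and Ccn3 in WT. The summed RPKM of the 6 genes was 746, 749 and 560 in dKO libraries 1 to 3, against 25.3, 46.7 and 20.5 in WT libraries 1 to 3. Ccn5 made up 1.00 to 1.53% of that sum in dKO, against 4.54 to 7.84% in WT. The share of Ccn1 was 49.8 to 66.4% in dKO and 44.8 to 68.1% in WT, and these ranges overlapped.

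**Figure D3:**
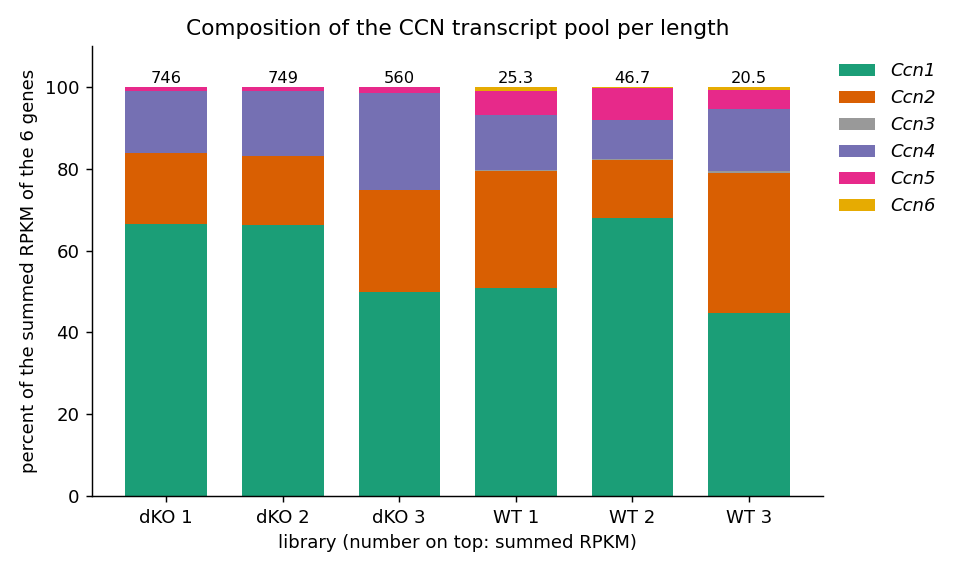
Share of each CCN gene in the summed RPKM of the 6 genes, in percent, 1 bar per library with dKO left of WT, and the summed RPKM above each bar. Ccn1 was the largest share in every library, and Ccn5 held 1.53% or less in dKO libraries and 4.54% or more in WT libraries.

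Ratios between CCN genes within a library do not depend on how libraries are scaled. All 6 pairs of the tested genes were compared with two-sided exact permutation tests, whose smallest possible p with 3 libraries against 3 is 0.1, so that none could pass 0.05. Only the ratio of Ccn1 to Ccn2 was planned, and the other pairs were added after the values were seen. The log2 ratio of Ccn4 to Ccn5 was 5.43 ± 0.0658 in dKO and 2.60 ± 0.742 in WT (SD, n = 3 each), a difference of 2.83 with no overlap (exact p = 0.1, 0.15 after adjustment over the 6 pairs). The ratios of Ccn1 to Ccn5 and of Ccn2 to Ccn5 were likewise higher in dKO without overlap, by 2.49 and 2.03, so Ccn5 was less raised than the other 3 genes in these libraries. The ratio of Ccn2 to Ccn4 was lower in every dKO library, at -0.83 ± 0.0715 against -0.02 ± 0.328 in WT (exact p = 0.1, adjusted 0.15).

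The ratio of Ccn1 to Ccn2 was 1.42, 1.46 and 0.50 in dKO libraries 1 to 3, against 0.328, 1.78 and -0.105 in WT libraries 1 to 3. These groups overlapped, with a difference of 0.46 (exact p = 0.6), and the ratio of Ccn1 to Ccn4 overlapped too, with a difference of -0.35 (exact p = 0.6). With 1 library left out, the difference of Ccn1 to Ccn2 ran from 0.072, without WT library 3, to 1.02, without WT library 2, and that of Ccn1 to Ccn4 turned to 0.023 without WT library 2. That does not show that Ccn1 and Ccn2 changed alike, since the ratio varied more within groups than between them. Within WT the ratio of Ccn1 to Ccn5 stayed between 3.17 and 3.37, while Ccn1 itself varied between 18.6 and 64.2 CPM.

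**Figure D4:**
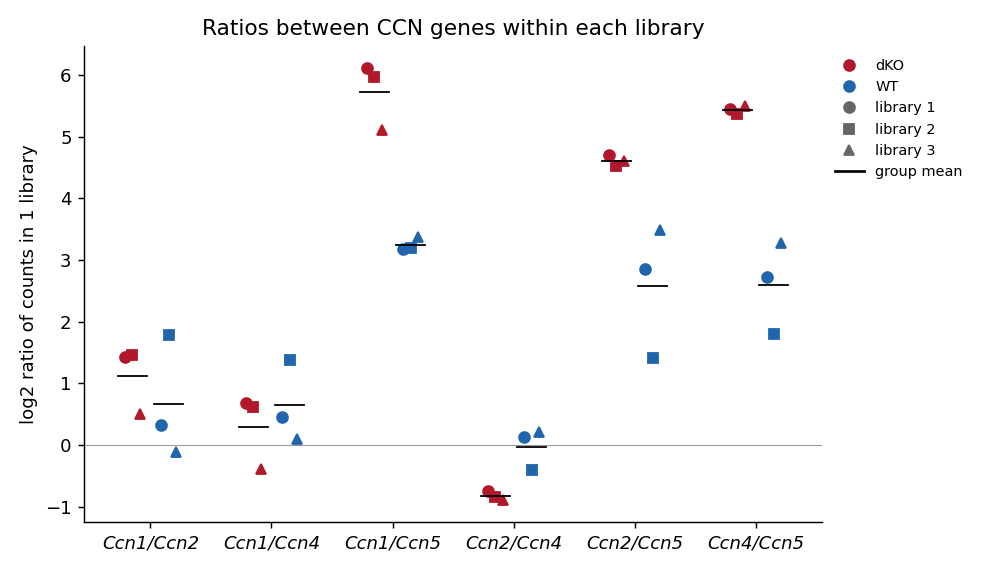
Log2 ratio of the counts of 2 CCN genes in each library, for the 6 pairs of tested genes, with dKO left of WT, symbols for libraries 1 to 3 and black lines for group means. The 3 ratios over Ccn5 and the ratio of Ccn2 to Ccn4 do not overlap between groups, whereas Ccn1 to Ccn2 and Ccn1 to Ccn4 do.

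The variation of Ccn1 within groups was set beside that of other genes. On the scale of log2(CPM + 1), the difference of Ccn1 between dKO library 3 and the mean of dKO libraries 1 and 2 was -0.83, and that between WT library 2 and the mean of WT libraries 1 and 3 was 1.504. The corresponding differences were 0.11 and 1.29 for Ccn5, 0.21 and 0.42 for Ccn4, and 0.11 and -0.12 for Ccn2. A gene that was lowest in dKO library 3 and highest in WT library 2, as Ccn1 was, occurred in 16.1% of all tested genes, in 8 of 16 YAP/TAZ signature genes and in 4 of 17 immediate-early genes. Dusp1, an immediate-early phosphatase gene named after its values were seen, was one of them, with 136, 122 and 62.5 CPM in dKO libraries 1 to 3, while it stood at 14.6, 58.9 and 11.0 CPM in WT libraries 1 to 3 and did not pass (edgeR adjusted p = 0.0923). Exons of Ergic1 overlap it.

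Other YAP/TAZ target genes were taken from a signature known from human cancers, without its CCN members. Of its 20 genes 16 were tested: 10 rose, among them Lats2, 4 fell and the call was missed by 2. That is 87.5% called, against 57.3% of all tested genes. Their median log2 fold change was 0.63, against -0.005 over all tested genes. Ccdc80, 1 of the 10 that rose and named after its values were seen, passed the filter only through its dKO counts. It had 0, 15 and 4 counts in WT libraries 1 to 3, against 200, 205 and 115 counts in dKO libraries 1 to 3. Amotl2, an angiomotin gene, reached 934 ± 119 CPM in dKO and 34.5 ± 1.95 CPM in WT, and Tgfb2, a TGF-beta ligand gene whose exons overlap those of Gm29491, reached 51.6 ± 2.82 CPM in dKO and 4.19 ± 0.584 CPM in WT (edgeR adjusted p = 2.02e-08 and 1.21e-07). Ankrd1, an ankyrin-repeat gene, rose by 2.33 ± 0.16 on the log2 scale (edgeR adjusted p = 4.47e-06). The 4 genes that fell included Nt5e, the CD73 ectonucleotidase gene named after its values were seen, at 48.6 ± 11.6 CPM in dKO and 369 ± 102 CPM in WT. Of the 14 signature genes with a promoter window, 5 held the TEAD motif, namely Amotl2, Ankrd1, Axl, Crim1 and Ptpn14, against 14.36% of all genes with a window.

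CCN1 is itself an immediate-early gene, so 17 other genes of that class were set beside it. All 17 were tested: 3 rose, 7 fell and the call was missed by 7. The share called, 58.8%, was near the 57.3% of all tested genes. Their median was -0.34. Atf3 and Klf6, both transcription factor genes, rose by 3.17 ± 0.21 and 1.96 ± 0.14 (edgeR adjusted p = 3.53e-06 and 6.3e-06). The serum response genes Fos and Egr1 stood at 3.28 ± 0.353 and 3.77 ± 0.703 CPM in dKO libraries and at 2.31 ± 1.29 and 4.75 ± 0.799 CPM in WT libraries, and neither passed (edgeR adjusted p = 0.325 and 0.278). Egr2 and Egr3, named after their values were seen, were at 0 in every dKO library and at 3.08 ± 0.606 and 8.90 ± 3.43 CPM in WT, at least 10.4-fold and 30.1-fold lower when set against the floor per library. Both passed the filter only through their WT counts.

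TGF-beta signalling through SMADs is another inducer of CCN2. Of 9 target genes 7 were tested: 1 rose, 5 fell and the call was missed by 1. Their median was -1.24, and the share called was 85.7%, against 57.3% of all tested genes. Ltbp2, a latent TGF-beta binding protein family gene, was at 8.90 ± 2.49 CPM in dKO and 495 ± 45.3 CPM in WT (edgeR adjusted p = 2.69e-07), and exons of D030025P21Rik overlap it on the other strand.

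Among 14 targets of MRTF and SRF, the actin-regulated factors that also act on Ccn1 and Ccn2, 11 were tested: 3 rose, 1 fell and the call was missed by 7. Their median was 0.16, and the share called was 36.4%, against 57.3% of all tested genes. Tpm1, a tropomyosin gene, was at 898 ± 41.5 CPM in dKO and 328 ± 45.6 CPM in WT, and Flna, the filamin A gene, at 900.1 ± 73.4 CPM in dKO and 1558 ± 139 CPM in WT (edgeR adjusted p = 4.35e-06 and 8.79e-05). Of 10 Wnt/beta-catenin targets only 3 were tested and all 3 fell, against 28.7% of all tested genes called lower. Tcf7, 1 of the 3 and named after its values were seen, passed the filter only through its WT counts. It had 0, 11 and 8 counts in dKO libraries 1 to 3, under the floor of 12, against 129, 149 and 163 counts in WT libraries 1 to 3. Znrf3 and Rnf43, which encode ubiquitin ligases that dampen Wnt reception, were at 19.8 ± 0.979 and 1.59 ± 0.695 CPM in dKO libraries and at 37.1 ± 2.24 and 10.8 ± 0.698 CPM in WT libraries (edgeR adjusted p = 6.59e-05 and 0.000119). Axin2, the usual Wnt reporter gene, had 0 counts in all 6 libraries. The part of Wnt signalling in the CCN results was not tested.

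CCN proteins act on cells through receptors and coreceptors, and of 14 such genes 13 were tested: 7 fell, 1 rose and the call was missed by 5. The share called, 61.5%, was near the 57.3% of all tested genes. Their median was -0.60. Lrp1, an endocytic receptor gene, was at 61.9 ± 3.20 CPM in dKO and 233 ± 4.69 CPM in WT, and Sdc4, the gene of the heparan sulfate proteoglycan syndecan-4, at 122 ± 7.47 CPM in dKO and 346 ± 38.6 CPM in WT (edgeR adjusted p = 1.21e-07 and 2.23e-06). Notch1, whose product binds CCN3, was at 40.6 ± 14.6 CPM in dKO and 134 ± 23.9 CPM in WT (edgeR adjusted p = 0.000918), with exons of other genes overlapping it.

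The integrin subunits of this list were unequal. Itgb3, which pairs with Itgav to form the classical CCN1 receptor of endothelial cells, was at 0 in every dKO library and at 8.999 ± 1.63 CPM in WT, at least 30.4-fold lower. It passed the filter only through its WT counts. Itga6 fell by 0.95 on the log2 scale, to 157 ± 16.7 CPM in dKO against 302 ± 82.8 CPM in WT (edgeR adjusted p = 0.0042). Itgb2 was lower too, at 2.21 ± 0.382 CPM in dKO and 5.35 ± 2.01 CPM in WT (edgeR adjusted p = 0.00738). Itga5 did not pass, at 41.4 ± 2.77 CPM in dKO and 51.7 ± 10.5 CPM in WT (edgeR adjusted p = 0.081). Nor did Itga2b, at 2.39 ± 0.961 CPM in dKO and 3.64 ± 0.900 CPM in WT (edgeR adjusted p = 0.17). Itgav stood at 238 ± 49.2 CPM in dKO and 195 ± 8.405 CPM in WT, Itgb1 at 1189 ± 112 CPM in dKO and 1157 ± 43.5 CPM in WT, and Itgb5 at 216 ± 11.4 CPM in dKO and 244 ± 16.4 CPM in WT, and none of the 3 passed (edgeR adjusted p = 0.109, 0.711 and 0.0729). The only rise was that of the leukocyte integrin gene Itgam, at 0.375 ± 0.0790 CPM in dKO, near the floor, and at 0 in every WT library. Itgam passed the filter only through its dKO counts, and with counts divided by 4, in place of the counts as deposited, 0 receptor genes were called higher.

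**Figure D5:**
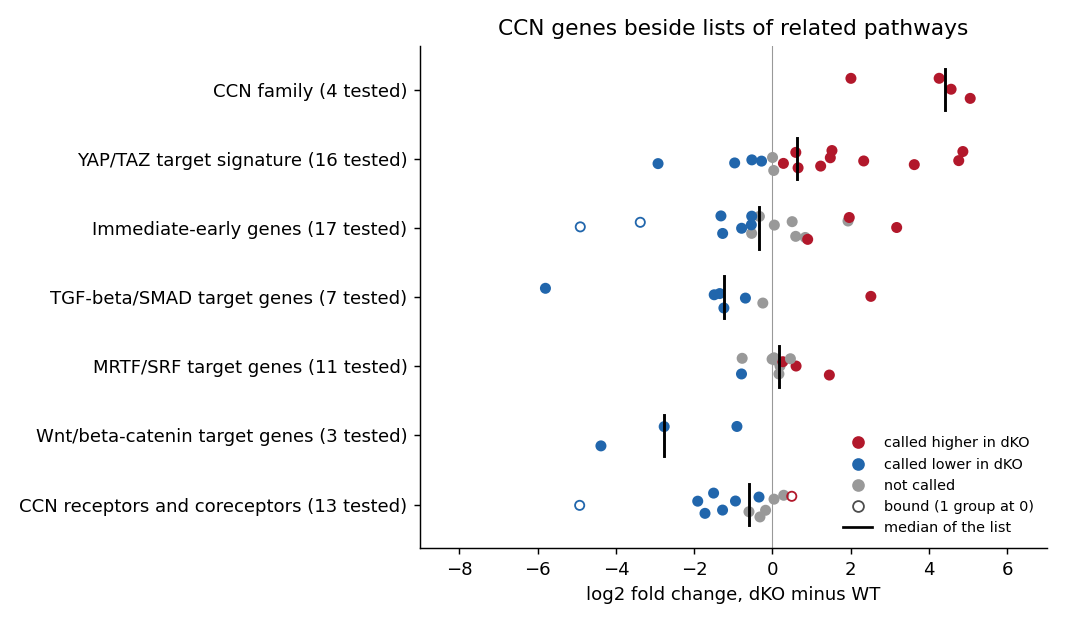
Log2 fold change, dKO minus WT, of the tested genes of the CCN family and of 6 related lists, 1 point per gene coloured by call, with black lines for list medians. Open points are genes at 0 in every library of 1 group, drawn at their bound against the floor. The CCN genes lie between 2.00 and 5.05, and the medians of the other lists between -2.77 and 0.63.

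Genes whose pattern was most like that of each CCN gene were found by the root mean square difference over the 6 libraries of log2(CPM + 1), centred on the WT mean, among 12355 tested genes with an assigned name. Because 1 is added, genes near 0 in WT can match a gene with a smaller fitted fold. For Ccn1 they were Csf1r, Serpinb6b and Mal, with differences of 0.424, 0.439 and 0.454. Csf1r, the receptor gene for colony-stimulating factor 1, stood at 188, 190 and 62.7 CPM in dKO libraries 1 to 3, against 3.55, 14.2 and 1.01 CPM in WT libraries 1 to 3. It was low and high in the same libraries as Ccn1, which is the likeness by which it was chosen. Those of Ccn2 were Gc, Sh3rf2 and Akap6, at 0.0960, 0.113 and 0.122. Those of Ccn4 were Slc24a3, Tgm1 and Clmn, at 0.0603, 0.205 and 0.207. Those of Ccn5 were C1ra, Slc25a48 and Tpd52l1, at 0.153, 0.170 and 0.200. In WT, Gc, Sh3rf2 and Akap6 had means of 0, 0.237 and 0.0270 CPM, against 19.8 CPM for Ccn2. Tgm1 and Clmn each had a WT mean of 0.0751 CPM, against 20.3 CPM for Ccn4. Gc, Sh3rf2, Akap6, Tgm1 and Clmn passed the filter only through their dKO counts.

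Markers of cells that often express CCN genes in tumours were set beside these results. Of 10 fibroblast markers 4 were tested, 2 higher and 2 lower, against 28.6% and 28.7% of all tested genes called higher and lower. The summed level of the 10 was 11.6 to 12.9 CPM in dKO and 37.2 to 60.3 CPM in WT, with Lum and Thy1 at 0 in all 6 libraries. Pdgfra and Col1a1 fell, at 2.40 ± 0.554 and 2.46 ± 0.682 CPM in dKO libraries and at 38.2 ± 8.53 and 12.1 ± 3.15 CPM in WT libraries. Postn and Col1a2 rose, at 6.14 ± 0.885 and 0.718 ± 0.223 CPM in dKO libraries and at 0.433 ± 0.482 and 0.0331 ± 0.0573 CPM in WT libraries, the WT levels of Col1a2 being under the floor. Both passed the filter only through their dKO counts, and Postn had 0 counts in WT library 2. Of 8 leukocyte markers 3 were tested, 2 higher and 1 lower, against the same shares of all tested genes. The sum of the 8 was 81.6 to 214 CPM in dKO and 16.2 to 53.5 CPM in WT. It was mostly Csf1r in dKO, whose exons overlap those of Hmgxb3 on the other strand. The macrophage marker Cd68 also rose, at 15.6 ± 1.80 CPM in dKO and 2.15 ± 0.207 CPM in WT, and Cd14 fell, at 5.54 ± 0.384 CPM in dKO and 21.3 ± 13.8 CPM in WT. Adgre1, another macrophage marker that was not tested, stood at 2.12, 2.53 and 0 CPM in dKO libraries 1 to 3 and at 0 in WT. Cd3e was at 0 in all libraries, and Ptprc, the pan-leukocyte marker, was at 0.174 ± 0.217 CPM in dKO and at 0 in WT. The 6 endothelial markers summed to 0 to 1.03 CPM in dKO and 0.466 to 1.46 CPM in WT, with Kdr and Emcn at 0 in all libraries. The part of these markers in the CCN results was not tested.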

How the data were processed

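The authors deposited estimated counts per gene, as whole numbers without normalization, for 48820 Ensembl mouse identifiers. The submitters' processing notes name HISAT2 2.2.1, StringTie 2.2.1 and the GRCm38 (mm10) build. The counting step, annotation release and strand setting were not given in the sources used here, so reads of overlapping genes may be mixed. The 6 sample files equalled the columns of the series table. Values piled up at exactly 4 (678 to 775 genes per library, against 273 to 367 at 5), so a read pair may be worth as many as 4 counts, and the floor for a count of 0 was set at 12 counts (3 read pairs). Such floors cover counting error only.

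GENCODE M21 named 48144 identifiers, and the 676 others held 0.0293% of the counts. The test was edgeR 4.0.16 (R 4.3.3) with TMM, filterByExpr, robust quasi-likelihood dispersions and genotype as the only term, fitted on all genes, with Benjamini-Hochberg adjustment over the 15807 tested and a threshold of 0.05. SE is the log2 fold change over the square root of F. The script was tested on simulated counts. Same-numbered libraries were not paired by the labels. Members, lists and tests were chosen with earlier results of these data known. The named genes were Lats1 and Lats2, the 6 members, the receptors, in each other list the 2 called genes with the smallest adjusted p plus Ankrd1, Amotl2, Fos, Egr1 and Axin2, and the 3 genes most like each called member. One further gene that the rule names is not reported here.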

Additional observations from a re-analysis of the deposited data

How the results depend on the processing

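Under 14 alternatives for each gene, the log2 fold changes of Ccn1, Ccn2, Ccn4 and Ccn5 kept their direction and stayed under the threshold. They ranged from 4.24 to 5.49 for Ccn1, 4.18 to 4.29 for Ccn2, 4.95 to 5.21 for Ccn4 and 1.66 to 2.73 for Ccn5, with largest adjusted p-values of 0.011, 5.98e-07, 1.67e-06 and 0.0236. The number of CCN genes called was 4 or 5, the additional one being Ccn3. It lay near the floor in WT and at 0 in dKO, so its calls are not read as a change. Testing against a 1.5-fold threshold, a stricter question by construction, called 4556 genes in place of 9060, and 8 in place of 14 YAP/TAZ signature genes and 2 in place of 4 MRTF/SRF targets. With at least 10 CPM asked in 3 libraries, which leaves fewer genes, 1 Wnt target was called in place of 3. Without dKO library 3, 11 receptor genes were called in place of 8, and with counts divided by 4 there were 7, the rise of Itgam being lost. The ratio of Ccn1 to Ccn4, one of 5 ratios added after the values were seen, ran from -0.62 to 0.023 with 1 library left out. It turned to 0.023 without WT library 2 and to 0.37 without WT library 2 and dKO library 3, and the cause was not tested. The ratio of Ccn1 to Ccn2 ran from 0.072 to 1.02 with 1 library left out. Same-numbered libraries share only a number, with correlations of their deviations of -0.105, 0.109 and 0.156. With a replicate block 8658 genes and 4 CCN genes were called, and the ratio of Ccn1 to Ccn2 had an exact p of 0.5. With the longest transcript as length, Ccn2 and Ccn4 stood at 152 and 132 RPKM in dKO, in the same order. Depth limits Ccn3 and Ccn6, which lay near the floor.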

Other observations

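The genes next to each CCN gene were looked at by position, as the nearest 2 tested genes on either side, a choice made after the values of the members were seen. Of 24 such neighbours 9 were higher in dKO, 6 were lower and 9 did not pass, against 28.6% and 28.7% of all tested genes called higher and lower. Gm17501, an annotated transcript that starts 331 bases from Ccn1 on the opposite strand and runs away from it, stood at 14.99, 18.4 and 12.2 CPM in dKO libraries 1 to 3, against 0.365, 2.13 and 0.302 CPM in WT libraries 1 to 3. It was thus lowest in dKO library 3 and highest in WT library 2, as Ccn1 was, and rose by 4.06 ± 0.70 (edgeR adjusted p = 0.00202). Ddah1, a dimethylarginine hydrolase gene 108694 bases from Ccn1 on the same side, was also lowest in dKO library 3 and highest in WT library 2, at 169, 169 and 112 CPM in dKO libraries 1 to 3 and 13.3, 18.2 and 12.7 CPM in WT libraries 1 to 3. That order of libraries occurred in 16.1% of all tested genes, and a local link to Ccn1 was not tested. Znhit6, 42181 bases away on the other side, fell by 0.51.

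All 4 neighbours of Ccn4 were higher in dKO, against 28.6% of all tested genes called higher. Of these, Sla, Tg and Gm2895 passed the filter only through their dKO counts. Ndrg1, a stress-induced gene 6117 bases away, was at 311 ± 42.9 CPM in dKO and 145 ± 30.9 CPM in WT, and Sla, an adaptor gene that lies inside Tg on the other strand, was at 22.9 ± 5.68 CPM in dKO and 0.469 ± 0.266 CPM in WT (edgeR adjusted p = 0.000578 and 8.1e-06). Beside Ccn3, Mal2 rose and Enpp2, the autotaxin gene, was at 0 in every dKO library and at 2.97 ± 1.51 CPM in WT, at least 10.02-fold lower. Enpp2 passed the filter only through its WT counts. None of the 4 neighbours of Ccn2 passed as higher, and Moxd1, at 82.4, 84.1 and 28.4 CPM in dKO libraries 1 to 3 and at 26.8, 30.1 and 30.1 CPM in WT libraries 1 to 3, lay at the threshold (log2 fold change 1.16, edgeR adjusted p = 0.05003).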
